A study of Mus musculus with 4 samples.

Results

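Expression of 10 genes of the BCL2 family was followed across the CD8+ T cells (Tc), CD4+ Tc and erythroid cells of the spleen of transplanted mice. The genes were chosen by symbol and make up 10 of the 32285 genes counted: the prosurvival genes Bcl2, Bcl2l1, Mcl1, Bcl2a1b and Bcl2a1d, the pore-forming genes Bax and Bak1, and the BH3-only genes Bcl2l11, Bid and Bbc3. Each was found as 1 row of the count tables. Single-cell RNA was counted in 4 libraries, 1 per mouse, as unique molecular identifiers (UMIs), each standing for 1 captured RNA molecule.

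All recipients were BALB/c mice that received lethal irradiation, WEHI-3B cells (a mouse myelomonocytic leukemia line) and allogeneic C57BL/6 BM, followed on day 2 by donor Tc, and spleen cells enriched for Tc with a pan-Tc kit were taken on day 23. In 2 libraries donor BM and Tc came from Havcr2fl/fl;E8icre/+ mice, in which a Cre recombinase under the E8i enhancer of the Cd8a locus is meant to delete the floxed Havcr2 gene, which encodes TIM-3, in CD8+ cells. In the other 2 libraries they came from Havcr2fl/fl mice, which carry the floxed alleles and no Cre. The libraries are called by their labels cre 1, cre 2, flox 1 and flox 2, and 4 values in a row follow that order.

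Proteins of the BCL2 family decide whether the outer membrane of the mitochondria stays closed. BAX and BAK1 form pores in that membrane through which cytochrome c leaves and starts the caspase cascade. BCL2, BCL-XL (the product of Bcl2l1), MCL1 and A1 (the product of the Bcl2a1 genes) hold these pore formers and the BH3-only proteins in check. BH3-only proteins such as BIM (from Bcl2l11), PUMA (from Bbc3) and BID carry death signals: BIM follows loss of cytokine signals and repeated antigen stimulation, PUMA follows p53 and cytokine withdrawal, and BID is cut by caspase 8 below death receptors. Naive and memory Tc are known to depend on BCL2 under IL-7 signals, activated Tc use A1 and MCL1, Treg depend on MCL1, and maturing erythroblasts depend on BCL-XL.

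On GRCm38 the prosurvival members lie on chromosome 1 (Bcl2, ENSMUSG00000057329, 106538178 to 106714274, minus strand), chromosome 2 (Bcl2l1, ENSMUSG00000007659, 152780668 to 152831728, minus strand), chromosome 3 (Mcl1, ENSMUSG00000038612, 95658788 to 95663176, plus strand) and chromosome 9. The last holds Bcl2a1b (ENSMUSG00000089929, 89199209 to 89207827, plus strand) and Bcl2a1d (ENSMUSG00000099974, 88723285 to 88731914, minus strand), copies of 1 ancestral gene. Bax (ENSMUSG00000003873, 45461697 to 45466898, minus strand) and Bbc3 (ENSMUSG00000002083, 16308393 to 16318205, plus strand) lie on chromosome 7, Bak1 (ENSMUSG00000057789, 27019810 to 27029009, minus strand) on chromosome 17, Bcl2l11 (ENSMUSG00000027381, 128126038 to 128162547, plus strand) on chromosome 2 and Bid (ENSMUSG00000004446, 120891930 to 120916853, minus strand) on chromosome 6.

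The Bcl2a1 copies are near identical, so their counts need care. Over 817 aligned bases the transcripts of Bcl2a1b and Bcl2a1d shared 810 (99.1%), and over the last 300 bases, the end that the 3′ libraries read, they shared 298. How reads were divided between them is not known, so their separate values are uncertain, and the sum over Bcl2a1a, Bcl2a1b and Bcl2a1d is given beside them. Where they align, their promoters differ by 1 substitution and 1 run of bases in Bcl2a1b that has no match in Bcl2a1d. Ends that did not align are left out, so the Bcl2a1b stretch below stops short of its start at 89199209. The aligned stretches are shown because they carry the letters by which the copies differ. They come from RefSeq on GRCm38.p6, at chr9:89199023-89199164 on the plus strand for Bcl2a1b and chr9:88731915-88732050 on the minus strand for Bcl2a1d, and capitals mark bases that have no match in the other copy.
Bcl2a1b: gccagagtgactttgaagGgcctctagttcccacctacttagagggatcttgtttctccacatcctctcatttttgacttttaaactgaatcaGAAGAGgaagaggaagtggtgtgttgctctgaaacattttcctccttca
Bcl2a1d: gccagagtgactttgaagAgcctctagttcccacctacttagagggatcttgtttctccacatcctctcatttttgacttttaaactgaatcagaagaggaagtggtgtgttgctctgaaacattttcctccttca
Of 142 aligned positions 135 matched (95.1%); Bcl2a1b had 7 unmatched bases and Bcl2a1d 1. Promoters of all 10 members were found in the RefSeq table, 15 in all. The letters GATAA, the core motif of GATA factors, stood on either strand in the 250 bases before the start of 1 of these 15, 1 of the 3 promoters of Bcl2l1, and in 22.6% of all 32851 promoters. TTCNNNGAA, the core motif of STAT factors, was in none of the 15 and in 7.0% of all. The motifs cannot overlap in letters, and a match is a description of sequence, not a bound site.

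The 4 libraries held 1511 to 6737 barcodes and 17693991 to 55045903 UMIs, and 11507 cells were kept: 4259 CD8+ Tc, 1754 CD4+ Tc and 3435 erythroid cells among them. Cell barcodes shared by any pair of libraries numbered 1 to 6. Markers fitted the gates: Cd3e, a chain of the T cell receptor complex, was at 762 to 1055 CPM (counts per 1000000 UMIs of the sum over all cells of a state in 1 library) in CD8+ Tc and at 0.842 to 7.26 CPM in early erythroid cells, while Gata1, the erythroid master regulator, was at 0.251 to 3.74 and 116 to 133 CPM. Hbb-bs, a β-globin gene, was nonetheless counted in CD8+ Tc, at 911 to 3411 CPM. Havcr2 went against 1 label: in CD8+ Tc the libraries labelled cre 1 and cre 2 gave 61.2 and 7.90 CPM (541 and 56 UMIs) and those labelled flox 1 and flox 2 gave 54.8 and 115 CPM (218 and 553 UMIs). Between genotypes the values described for single members are therefore also given without the library labelled cre 1. Cells of 1 mouse are not replicates, so UMIs were summed per state and library, and edgeR's quasi-likelihood test compared the sums with the library as a block, with p-values adjusted over all genes tested. Nothing states whether the mice came from separate experiments, so p-values speak for these 4 mice. Between states they measure how far the difference within a mouse varied from mouse to mouse. Between genotypes, where no block was used, they measure the spread between mice. Counts are of 3′ ends, and levels are compared between states within a gene, never between genes.

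Among the 8 states of CD8+ Tc compared, Bcl2 set the TPEX-like cells apart. It was highest in this cluster, which takes its name from markers of precursor exhausted cells (Tcf7, Slamf6, Id3, Xcl1, Il7r and Lef1, 6 of 6 raised), at 1019.9, 832, 796 and 1038 CPM (mean 921 ± 125 CPM, SD, n = 4). Against other CD8+ Tc the cluster also had 5 of 6 naive or memory markers raised, and that list shares Il7r and Lef1. Of 9 markers of terminally exhausted Tc, Pdcd1, Lag3 and Tox among them, it had 0 raised. Bcl2 came to 239, 450.1, 224 and 222 CPM in CD8 cluster 1, a mean of 284 ± 111 CPM (SD, n = 4). Every TPEX-like sum lay above every cluster 1 sum, and within cluster 1 the library labelled cre 2 stood high. Fold changes are given as log2 changes; that of Bcl2 in cluster 1 was −1.75 (SE 0.15, adjusted p = 6.7e-10). It came to −2.07 without the library labelled cre 2. Cluster 1 had 7 of 9 markers of terminally exhausted Tc raised, Pdcd1 and Lag3 being among the markers looked for, and 5 of 7 effector markers, with the effector gene Gzma and none of the exhaustion markers among its 10 leading genes, so it is called by its number. The other states outside the cycle followed in the order CD8 cluster 5 (551 ± 24.0 CPM, SD, n = 4), cluster 0 (472 ± 68.5 CPM, SD, n = 4), effector-like (291 ± 71.3 CPM, SD, n = 4) and short-term effector-like (285 ± 50.6 CPM, SD, n = 4). Neighbors in this order overlapped in range, whereas the TPEX-like sums lay above all of them. Cluster 5 met the rule for the name naive or memory-like, with 4 of 6 markers raised (Il7r, Lef1, S1pr1 and Klf2). It also had 4 of 7 short-term effector markers raised and is called by its number.

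**Figure D1:**
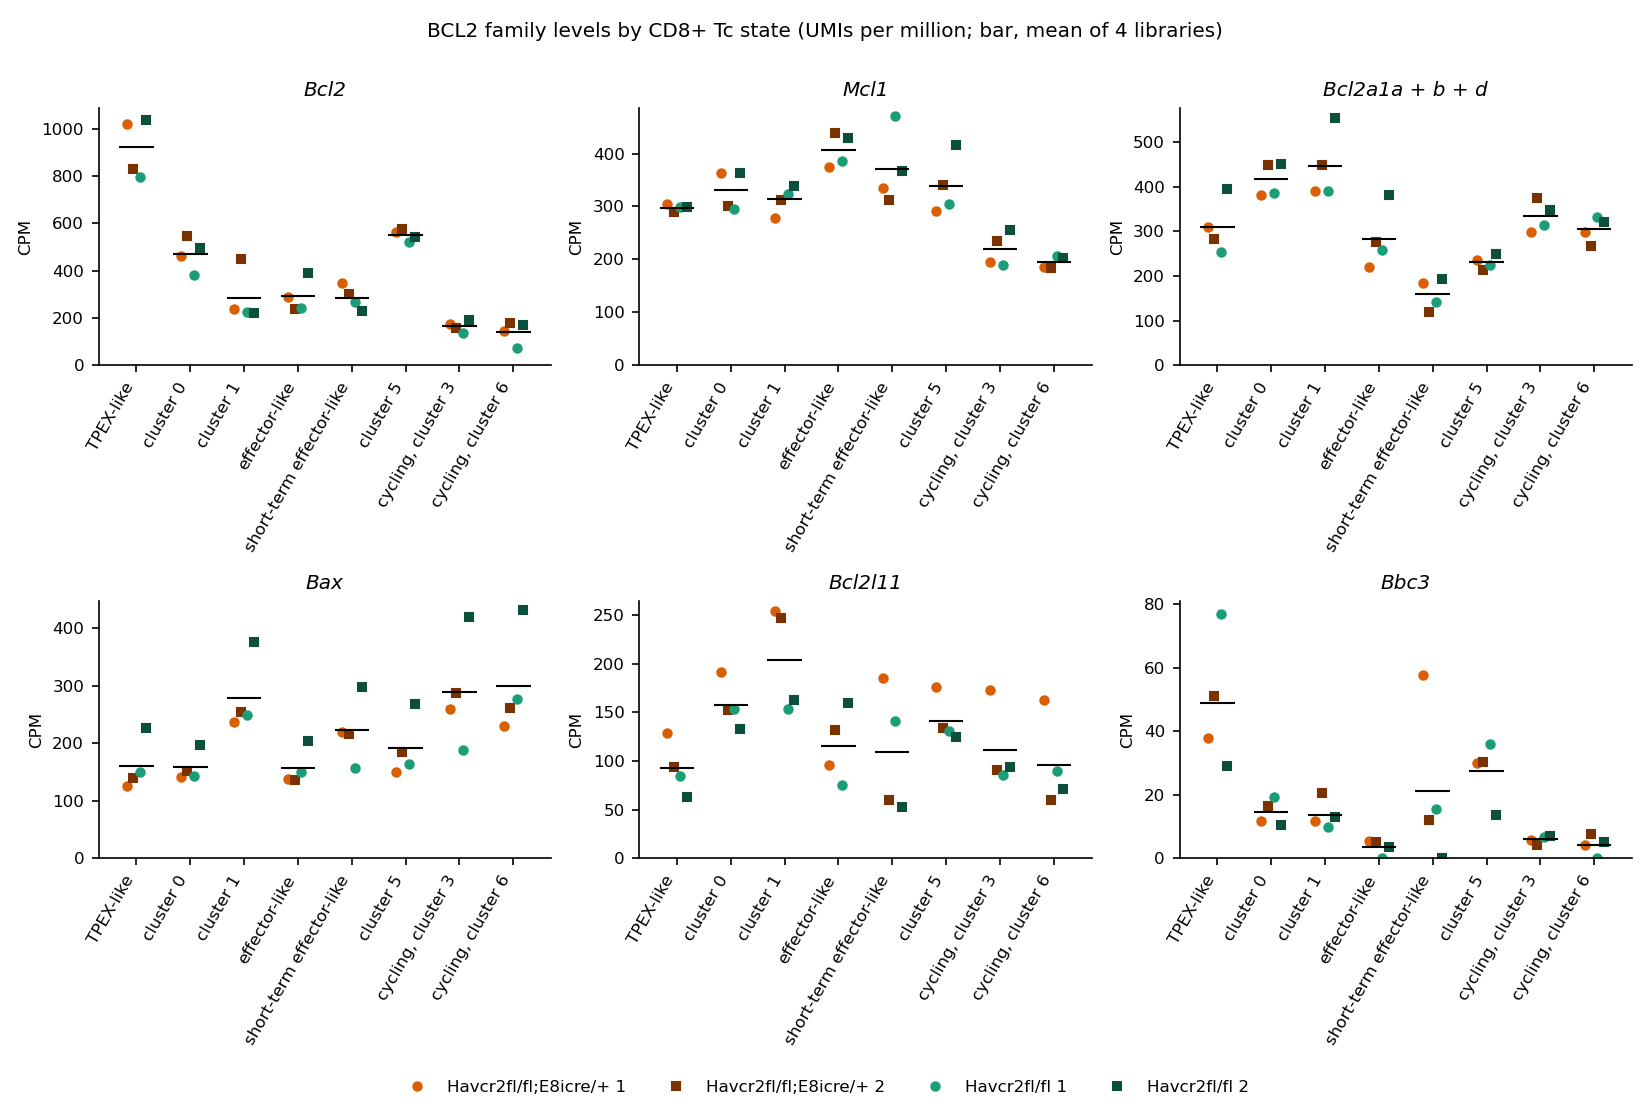
Levels of 5 members and of the sum over Bcl2a1a, Bcl2a1b and Bcl2a1d in 8 states of CD8+ Tc, in CPM (vertical axes, linear from 0), with 1 point per library and a bar at the mean of 4. Bcl2 was highest in TPEX-like cells at 796 to 1038 CPM, and Bcl2l11 had its highest mean in cluster 1, at 204 CPM.

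Of the 10 members, 9 could be tested between cluster 1 and the TPEX-like cells, and 6 passed: 4 were higher and 2 lower in cluster 1, while 12.3% of all 7262 genes were higher and 12.1% lower. The median log2 change of the 9 was 0.33, against −0.0025 over all genes. Beside Bcl2, the gene lower in cluster 1 was Bbc3, at 37.8, 51.2, 77.0 and 29.2 CPM in TPEX-like cells and 11.6, 20.5, 9.97 and 13 CPM in cluster 1, with a log2 change of −1.72 (SE 0.25, adjusted p = 8.7e-06). The groups did not overlap. Of the 8 CD8+ states drawn, the one with the highest Bcl2 mean thus also had the highest mean of this BH3-only gene, which went from a mean of 48.8 CPM in TPEX-like cells to 3.54 CPM in effector-like cells.

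The BH3-only gene Bcl2l11 and the pore-forming gene Bax were higher in cluster 1. Bcl2l11, which encodes BIM, was at 129, 93.5, 84.9 and 62.9 CPM in TPEX-like cells and at 254, 247, 153 and 162 CPM in cluster 1, a log2 change of 1.15 (SE 0.12, adjusted p = 6.9e-08). Cluster 1 was above the TPEX-like cells in every library. Bax rose as well, from 126, 140.2, 150.1 and 227 CPM to 238, 254, 249 and 376 CPM (0.80, SE 0.11, adjusted p = 2.5e-06), with the library labelled flox 2 highest in both states. Bak1 did not pass, with means of 48.1 ± 11.9 CPM and 47.6 ± 8.72 CPM (SD, n = 4). Bid did not pass either (adjusted p = 0.30), at 16.9 ± 7.54 CPM and 20.7 ± 7.67 CPM (SD, n = 4).

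None of the other prosurvival genes tested fell past the threshold in cluster 1. The summed Bcl2a1 genes, induced by antigen receptor and NF-κB signals, were at 309, 283, 253 and 396 CPM in TPEX-like cells and 390.5, 449, 391 and 554 CPM in cluster 1, higher in cluster 1 within each library although the ranges of the states meet. Bcl2a1d, at 93.3, 101, 81.0 and 128 CPM in TPEX-like cells and 166, 173, 159.6 and 222 CPM in cluster 1, rose by 0.82 (SE 0.12, adjusted p = 6.6e-06). Bcl2a1b rose by 0.33 (SE 0.11, adjusted p = 0.031), a call that was lost without the libraries labelled cre 2, flox 1 or flox 2 (adjusted p = 0.24, 0.12 and 0.059) and whose value was 0.04 with a finer clustering, where Bcl2a1d stood at 0.48. Mcl1, whose short-lived protein all activated Tc need, showed 297 ± 6.39 CPM and 313 ± 25.6 CPM (SD, n = 4), and did not pass (adjusted p = 0.77). Bcl2l1 was too low to be tested, with 9.64 to 13.5 CPM in TPEX-like cells.

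Of 16 other BCL2 family genes 6 could be tested between cluster 1 and TPEX-like cells and 0 passed in edgeR's test (1 at an unadjusted p under 0.05, a level that 33.8% of all genes reached). Of 20 genes of the death machinery 17 were tested, 5 rose and 1 fell, with a median of −0.03 beside the −0.0025 of all genes. Cycs, which encodes cytochrome c, rose by 0.82 (SE 0.13, adjusted p = 2.5e-05), and the mitochondrial protease gene Htra2 fell by 0.84 on the log2 scale (SE 0.30, adjusted p = 0.041).

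Short-term effector-like cells (7 of 7 of their markers raised, Klrg1, Cx3cr1 and Zeb2 among them) were few, 13 to 29 per library. Against cluster 1 they had less RNA of the Bcl2a1 genes. The sum was at 185, 119.9, 141 and 192 CPM, and no library reached the level of any cluster 1 sum. Of 7 members tested 3 fell and 0 rose, where 9.7% of all 4806 genes fell and 9.01% rose. The log2 changes were −1.49 (SE 0.27, adjusted p = 7.2e-05) for Bcl2a1b, −1.56 (SE 0.32, adjusted p = 3.0e-04) for Bcl2a1d and −0.95 (SE 0.28, adjusted p = 0.013) for Bcl2l11. All 3 calls rested on few UMIs in the short-term effector-like cells. These were 13, 7, 2 and 6 for Bcl2a1b, 3, 3, 7 and 5 for Bcl2a1d and 16, 5, 9 and 3 for Bcl2l11. Bcl2l11 was at 185, 59.9, 141 and 52.4 CPM, and its call was lost without the library labelled cre 2 (−0.64, adjusted p = 0.16). At coarser and finer clustering the value was −0.87 and −0.81 for Bcl2a1b and −0.55 and −0.37 for Bcl2l11. Bcl2 itself was at 347, 299.6, 267 and 227 CPM and did not pass (adjusted p = 1.00), but over 15 alternatives its log2 change ran from −0.24 to 1.21, and 3 of these passed (lowest adjusted p = 3.6e-09), so no direction is read for it. In the death machinery 3 of 13 tested genes fell and 0 rose. Log2 changes were −1.04 (SE 0.34, adjusted p = 0.025) for Trp53, the p53 gene, and −0.86 (SE 0.30, adjusted p = 0.039) for Cycs. Of the other family genes 3 were tested and 0 passed (1 at an unadjusted p under 0.05, as 28.3% of all genes were). Effector-like cells (6 of 7 effector markers raised, Gzmk, Gzmb, Prf1 and Ifng among them) had the highest Mcl1 mean of the 8 CD8+ states, 407 ± 31.8 CPM (SD, n = 4), with 375 to 439 CPM, a range that the short-term effector-like sums overlapped. CD8 cluster 5, at 416 CPM in the library labelled flox 2, reached into that range too.

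Cycling CD8+ Tc (clusters 3 and 6, marked by Mki67, Tyms, Rrm2 and other proliferation genes) gave a smaller share of their UMIs to the prosurvival genes Bcl2 and Mcl1 and a larger share to both pore formers. Bcl2 was at 159, 167, 108 and 180.1 CPM in cycling cells and 462, 580.2, 429 and 480.2 CPM in all other CD8+ Tc, without overlap, a log2 change of −1.53 (SE 0.08, adjusted p = 9.2e-11). Mcl1 was at 190.4, 211, 196 and 226 CPM and 319, 313, 316 and 358 CPM, again without overlap (−0.54, SE 0.07, adjusted p = 3.0e-06). In UMIs per cell the direction of Mcl1 turned, with 1.94, 3.07, 3.27 and 1.53 in cycling and 1.42, 1.90, 2.19 and 1.06 in other CD8+ Tc, higher in cycling cells in each library, while Bcl2 was lower per cell too, with 1.62, 2.43, 1.79 and 1.22 against 2.05, 3.52, 2.97 and 1.41. Of the 10 members 2 rose and 4 fell, where 29.3% of all 9769 genes rose and 24.9% fell, so the number of rises is near the background. The members' median was −0.091, against −0.0079 over all genes.

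Bax rose in cycling cells, from 172, 168, 168 and 270.0 CPM to 244, 275, 227 and 426 CPM (0.71, SE 0.07, adjusted p = 2.1e-07). Each library rose, the ranges met, and the library labelled flox 2 was highest in both. Bak1 rose from 48.7 ± 5.40 CPM to 65.4 ± 5.54 CPM (SD, n = 4), by 0.55 (SE 0.09, adjusted p = 8.8e-05). Both BH3-only calls were falls in share. Bbc3 was at 4.97, 5.88, 3.81 and 6.04 CPM in cycling cells against 17.8, 27.5, 28.7 and 13.3 CPM (−1.84, SE 0.22, adjusted p = 2.5e-06). Bcl2l11 was at 168, 75.9, 87.7 and 81.8 CPM, highest in the library labelled cre 1, with a log2 change of −0.42 (SE 0.10, adjusted p = 0.0019) and of −0.67 without that library. Per cell it was higher in cycling cells in each library, with 1.71, 1.11, 1.46 and 0.554 UMIs against 0.842, 0.893, 0.887 and 0.386. The Bcl2a1 sum was at 319 ± 15.0 CPM beside 363 ± 53.0 CPM (SD, n = 4), and neither copy passed, although the Bcl2a1b value (−0.16, adjusted p = 0.058) was below 0 in each of 15 alternatives, −0.29 to −0.15, and passed in 5. Cycling cells carried more UMIs per cell, and CPM is a share of the sum, so a lower share does not give the number of molecules per cell.

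Other genes of the family split in cycling cells: of 9 tested, Bcl2l12 (0.66) and Bad (0.34), a BH3-only gene, rose, and Bcl2l2 (−1.40), which encodes the prosurvival BCL-W, and Bnip3l (−0.69), a mitophagy receptor, fell (adjusted p = 0.0051, 0.044, 0.0027 and 2.7e-07). In the death machinery 7 of 20 rose and 3 fell. Birc5 rose by 5.75 (SE 0.23, adjusted p = 1.8e-12); it encodes survivin, which acts in mitosis, and is itself one of the markers that named these clusters, so its rise is no finding. Cycs rose by 1.41 (SE 0.08, adjusted p = 4.2e-10) and Aifm1, a mitochondrial oxidoreductase gene, by 0.63 (SE 0.11, adjusted p = 8.4e-05). Cflar, which encodes the caspase 8 inhibitor cFLIP, fell by 0.64 on the log2 scale (SE 0.09, adjusted p = 2.1e-05).

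CD4+ Tc and CD8+ Tc as a whole differed in Bcl2l11, Bbc3 and Bcl2l1. Bcl2l11 was at 181, 125, 117 and 113 CPM in CD8+ Tc and 85.0, 61.9, 63.2 and 56.1 CPM in CD4+ Tc, with no overlap, and fell by 1.07 on the log2 scale (SE 0.07, adjusted p = 1.3e-07). Bbc3 was at 12.6, 20.7, 22.1 and 10.6 CPM in CD8+ Tc and 46.1, 41.3, 84.7 and 23.2 CPM in CD4+ Tc, higher in CD4+ Tc in each library, and rose by 1.46 (SE 0.16, adjusted p = 1.7e-05). Bid was at 18.3 ± 1.54 CPM and 14.2 ± 0.531 CPM (SD, n = 4) and missed the threshold (−0.42, SE 0.15, adjusted p = 0.051). Bcl2l1 was at 6.90, 9.02, 10.3 and 12.5 CPM in CD8+ Tc against 21.3, 18.3, 19.5 and 32.9 CPM in CD4+ Tc, without overlap, a rise of 1.20 (SE 0.17, adjusted p = 1.4e-04). In all, 4 members rose and 2 fell in CD4+ Tc, where 12.3% of all 10313 genes rose and 12.1% fell, and the members' median was 0.02.

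The other 3 calls were small. Bax fell, from 229 ± 67.2 CPM in CD8+ Tc to 174 ± 38.8 CPM in CD4+ Tc (SD, n = 4), and was lower in each of the 4 libraries (−0.43, SE 0.06, adjusted p = 2.2e-04). Bcl2, at 462, 496, 466 and 398 CPM in CD4+ Tc, rose by 0.24 (SE 0.07, adjusted p = 0.022); the call was lost without the library labelled cre 1 (adjusted p = 0.17) or flox 1 (adjusted p = 0.10), and the value was 0.93 when CD8+ and CD4+ Tc were told apart by cluster. Mcl1, at 308, 326, 352 and 355 CPM, rose by 0.18 (SE 0.05, adjusted p = 0.029), a call that was lost when any 1 of the 4 libraries was left out (adjusted p = 0.10, 0.083, 0.12 and 0.078). Told apart by cluster, the Mcl1 value was 0.34 and the Bcl2l11 value −0.70. Without the cycling clusters, CD8+ Tc had Bax at 172, 168, 168 and 270.0 CPM, against 147, 158, 160.0 and 232 CPM in all CD4+ Tc. Bcl2 then stood at 462, 580.2, 429 and 480.2 CPM and Mcl1 at 319, 313, 316 and 358 CPM in CD8+ Tc. Against all CD4+ Tc, Bax was still higher in each library, whereas the order of Bcl2 and Mcl1 was mixed. The part of cycling cells in these 3 calls was not tested. Of 11 other family genes tested, Bnip3l rose by 0.18 (SE 0.06, adjusted p = 0.035) and 0 fell. Of 20 death genes 4 rose and 4 fell: Cycs (−0.37) was among those that fell, and Birc3 (0.55) and Birc2 (0.35), inhibitor of apoptosis genes of the NF-κB pathway, rose (adjusted p = 5.6e-04, 0.0033 and 0.0017).

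**Figure D2:**
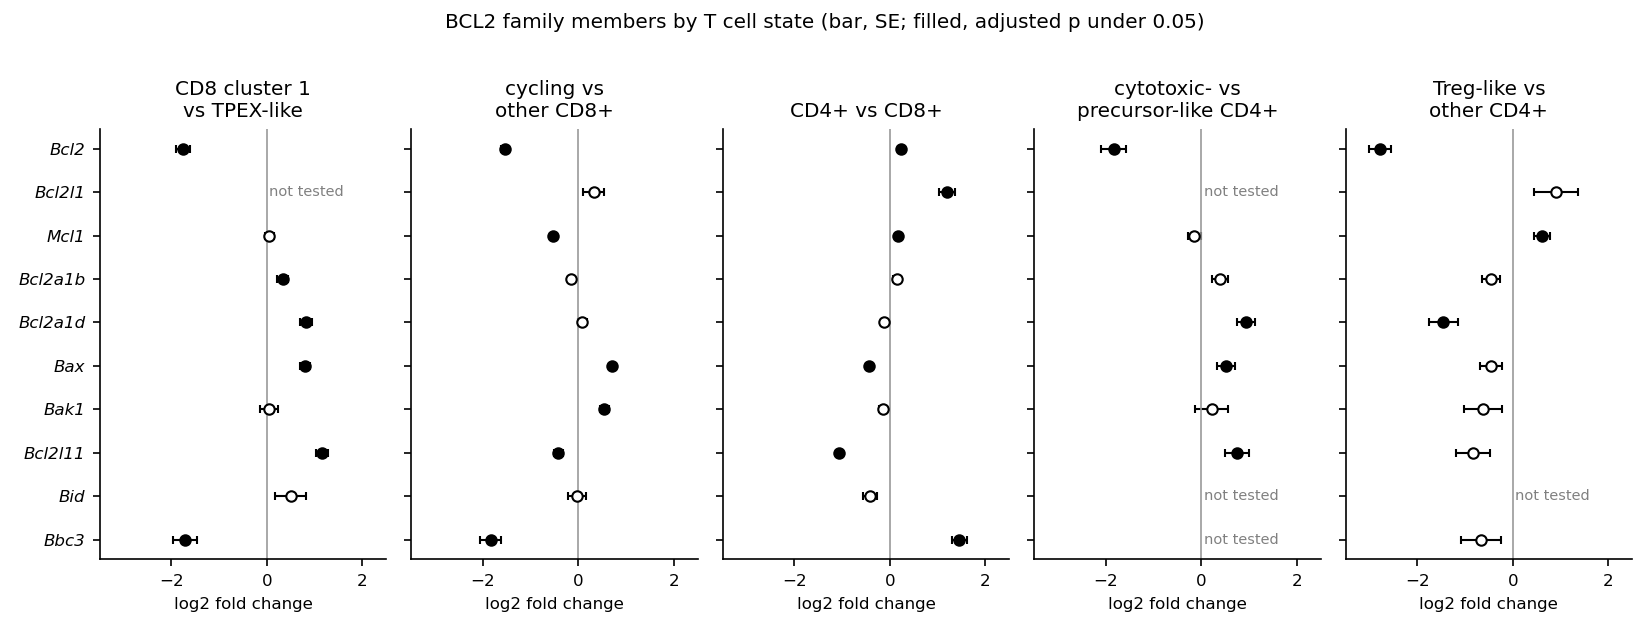
Log2 fold changes of the 10 members in 5 comparisons of Tc states (horizontal axes), with bars for the SE and filled points for an adjusted p under 0.05. Bcl2 was below 0 in 4 of the 5 panels, down to −2.78 in Treg-like cells, and Bcl2l11 was above 0 in cluster 1 (1.15) and in cytotoxic-like cells (0.75).

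Within CD4+ Tc the precursor-like cells (clusters 1 and 6, with raised Tcf7, Id3 and Lef1) again had much Bcl2, at 763, 692, 748 and 754 CPM, and the spread between libraries was small. Cluster 6, with 35 cells in all and 3 in the library labelled flox 1, had the highest mean, 1288 ± 259 CPM (SD, n = 4). CD4 cluster 0 (662 ± 111 CPM, SD, n = 4) and cluster 2 (553 ± 136 CPM, SD, n = 4), neither of which was named, followed. Unlike the TPEX-like sums, the precursor-like sums did not stand clear of other states. In the library labelled cre 1 cluster 0 was at 828 CPM, above the 763 CPM of the precursor-like sum, and cluster 2 at 724 CPM. Levels were lowest in cycling cells (123 ± 27.8 CPM, SD, n = 4) and Treg-like cells (68.5 ± 35.4 CPM, SD, n = 4), whose ranges overlapped.

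Cytotoxic-like CD4+ Tc (8 of 9 markers raised, Nkg7, Gzmb, Prf1 and Eomes among them) were compared with the precursor-like cells as cluster 1 was with TPEX-like cells. Bcl2 was at 105, 454, 189.6 and 76.3 CPM, below every precursor-like sum, with the library labelled cre 2 standing high here as it did in CD8 cluster 1. The log2 change was −1.84 (SE 0.25, adjusted p = 6.6e-06), and −2.62 without that library. Bcl2a1d rose, from 83.0, 84.9, 73.3 and 126 CPM to 181, 137, 165 and 261 CPM, without overlap (0.94, SE 0.19, adjusted p = 7.0e-04), although the value was 0.28 with a coarser clustering (adjusted p = 0.27) and 0.59 with a stricter cell filter (adjusted p = 0.059). Of 7 members tested 3 rose and 1 fell, where 11.2% of all 3608 genes rose and 11.1% fell, and the median was 0.39 beside −0.022.

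The remaining calls of this comparison were near the threshold. Bax, at 123, 124, 147 and 114 CPM in precursor-like and 179, 209, 129.7 and 218 CPM in cytotoxic-like cells, was higher in 3 of the 4 libraries and rose by 0.52 (SE 0.19, adjusted p = 0.048). Its call was lost without the library labelled cre 1, cre 2 or flox 2 (adjusted p = 0.11, 0.35 and 0.12). Bcl2l11 was at 98.8, 40.6, 48.9 and 71.8 CPM in precursor-like and 116, 104, 84.8 and 109 CPM in cytotoxic-like cells, higher in cytotoxic-like cells in each library, and rose by 0.75 (SE 0.25, adjusted p = 0.032). That call was lost without the library labelled cre 2 (0.42, adjusted p = 0.40) or flox 1 (adjusted p = 0.087). Bbc3 could not be tested; its sums were 51.4, 38.3, 117 and 23.9 CPM in precursor-like and 15.7, 5.97, 29.9 and 0 CPM in cytotoxic-like cells, lower in cytotoxic-like cells in each library. Of the death machinery 3 of 10 tested genes rose and 0 fell. Apaf1, the scaffold of the apoptosome, rose by 0.89 (SE 0.28, adjusted p = 0.021) and Vdac2, which anchors BAK1 in the membrane, by 0.70 (SE 0.19, adjusted p = 0.0083). Of the other family genes 2 were tested and 0 passed, with 0 at an unadjusted p under 0.05, as 31.5% of all genes were.

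**Figure D3:**
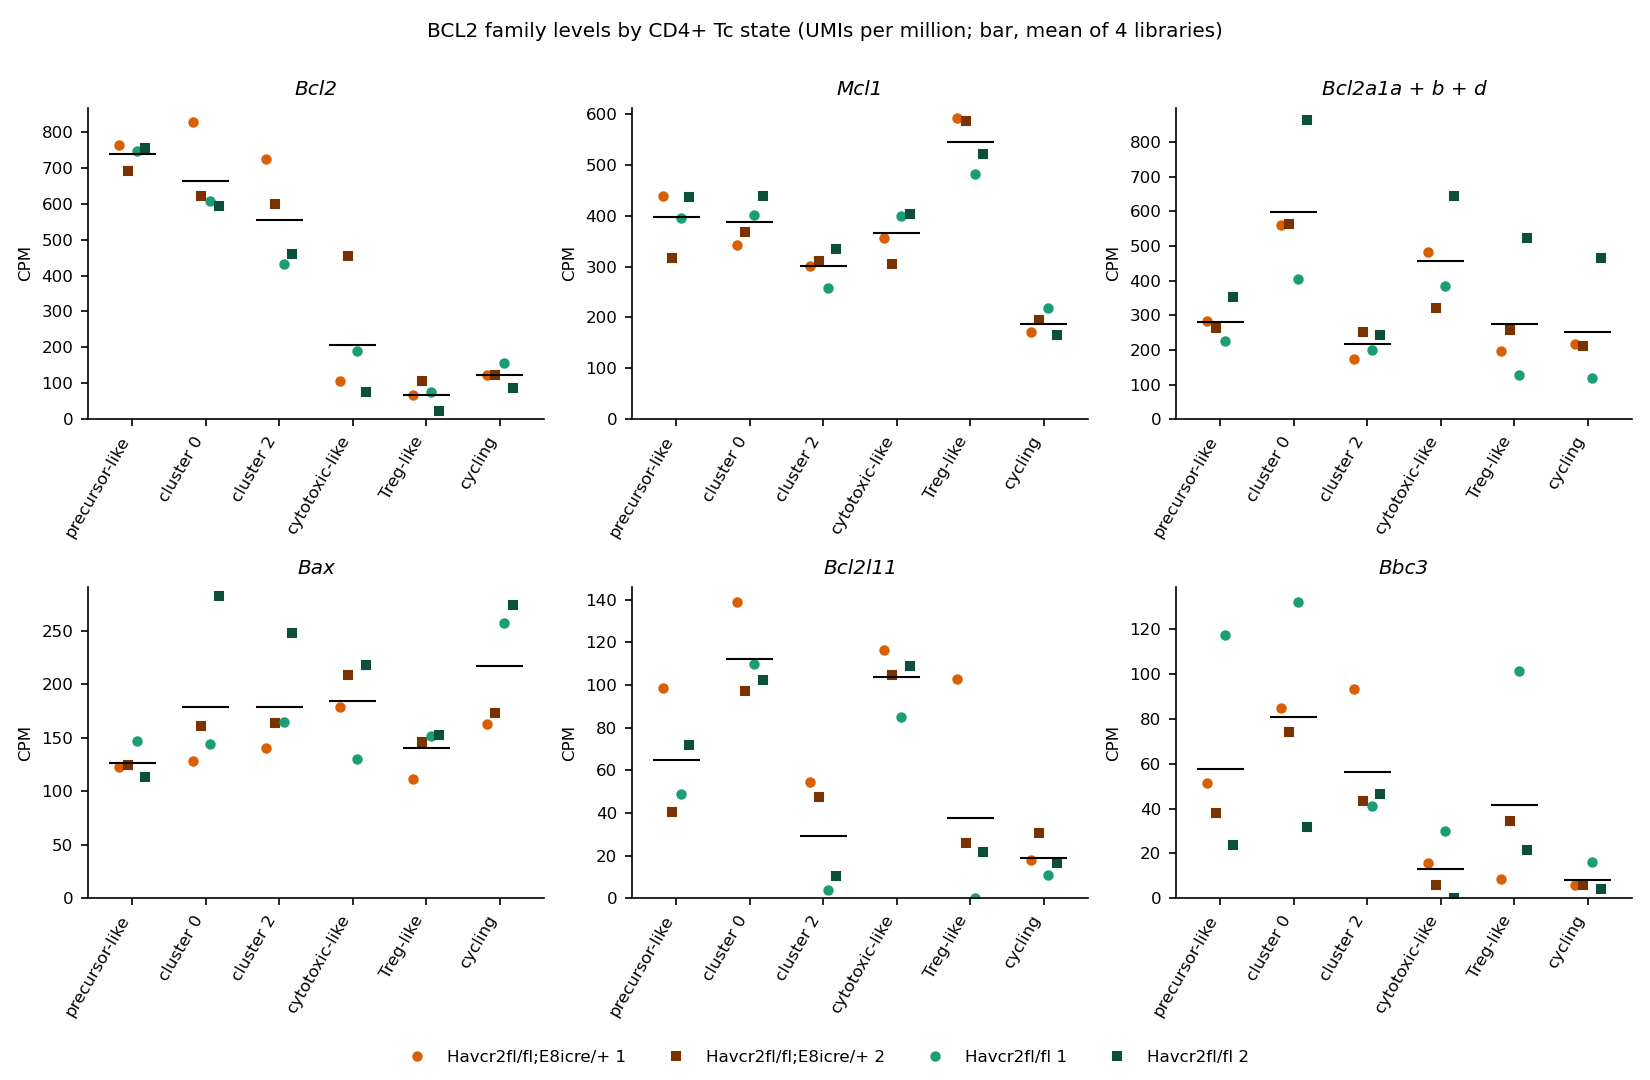
Levels of 5 members and of the summed Bcl2a1 genes in 6 states of CD4+ Tc, in CPM (vertical axes, linear from 0), with 1 point per library and a bar at the mean of 4. Treg-like cells had Bcl2 at 21.7 to 108 CPM, on 1 to 25 UMIs per library, and Mcl1 at 482 to 591 CPM.

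Treg-like cells (7 of 7 markers raised, Foxp3 and Il2ra among them) had little Bcl2 and much Mcl1. They numbered 111, with only 5 in the library labelled flox 1, and several sums rest on few UMIs. Bcl2 had 8, 25, 3 and 1, Bcl2a1d 4, 14, 1 and 4 and Bcl2l1 4, 7, 2 and 5 UMIs. Mcl1 had 69, 136, 19 and 24. Bcl2 was at 68.5, 108, 76.0 and 21.7 CPM, against 479, 522, 477 and 416 CPM in all other CD4+ Tc, a log2 change of −2.78 (SE 0.23, adjusted p = 2.1e-23). No Treg-like sum came near the others. Mcl1 was at 591, 585, 482 and 522 CPM against 296, 309, 349 and 347 CPM, again without overlap, and rose by 0.61 (SE 0.17, adjusted p = 0.0033), a call that was lost without the library labelled cre 1 (0.50, adjusted p = 0.12) or cre 2 (0.55, adjusted p = 0.12). High Mcl1 was not particular to these cells. The 35 cells of precursor-like cluster 6 had it at 936, 473, 845 and 610 CPM, above the Treg-like sum except in the library labelled cre 2. Bcl2a1d fell by 1.45 on the log2 scale (SE 0.30, adjusted p = 5.6e-05), at 34.3, 60.2, 25.3 and 87.0 CPM against 122, 122, 120.2 and 166 CPM. Bcl2l1 was at 34.3, 30.1, 50.7 and 109 CPM, above the 17.5 to 29.3 CPM of other CD4+ Tc in each library, and did not pass (0.91, SE 0.46, adjusted p = 0.21). Beside it, Hbb-bs was at 51.4, 7334, 76.0 and 22987 CPM in the Treg-like sums, and the part of erythroid RNA in the Bcl2l1 value was not tested.

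Of 9 members tested in Treg-like cells 1 rose and 2 fell, where 5.82% of all 6838 genes rose and 8.45% fell, and the median of the 9 was −0.62, beside −0.10 over all genes. Of 18 death genes tested 2 rose and 2 fell. Birc2 rose by 0.96 (SE 0.22, adjusted p = 2.6e-04) and Cflar by 0.66 (SE 0.21, adjusted p = 0.013). Birc5, a proliferation gene, fell by 3.40 (SE 0.47, adjusted p = 2.7e-10) in a comparison whose other side held the cycling CD4+ Tc, and Vdac2 fell by 0.79 (SE 0.24, adjusted p = 0.011). Of the other family genes 6 were tested and 0 passed in edgeR's test (1 at an unadjusted p under 0.05, as 23.4% of all genes were).

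In erythroid cells Bcl2l1 rose from stage to stage. It was at 5.31, 3.33, 2.54 and 2.87 CPM in the early cells (5 of 7 markers raised, Kit, Gata2, Myb, Myc and Car1), 56.3, 50.3, 44.5 and 41.1 CPM in the intermediate cells (8 of 8 markers raised, Tfrc and Klf1 among them) and 549.6, 453, 451 and 330.5 CPM in the late cells (10 of 10 markers raised, all 4 globin genes among them). No stage overlapped with the next. Since 56 to 65% of the UMIs of late cells came from globin genes, the level was also taken over UMIs outside these genes, where late cells had 1255, 1035, 1298 and 747 CPM. In UMIs per cell, which no scaling touches, Bcl2l1 was at 0.204, 0.189, 0.156 and 0.0728 in early cells and 2.34, 2.32, 3.38 and 1.11 in late cells. The gain per cell came although late cells were shallow, with a median of 3346 to 8318 UMIs against 24071 to 62990 in early cells.

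**Figure D4:**
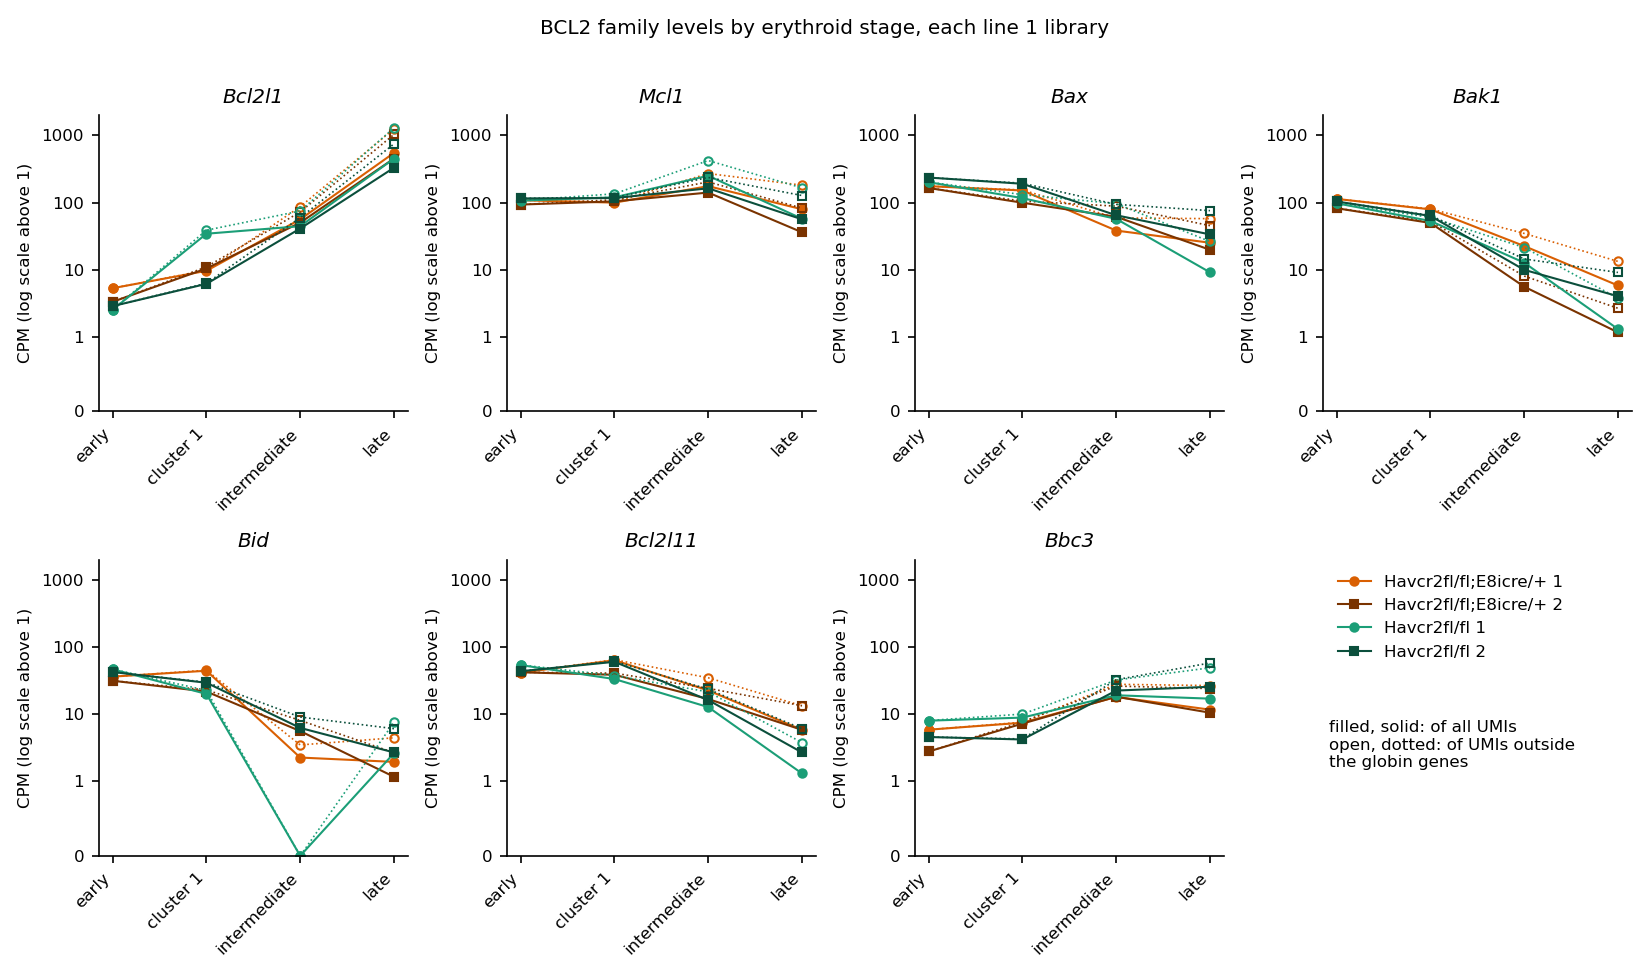
Levels of 7 members over the erythroid stages, as CPM of all UMIs (filled points, solid lines) or of the UMIs outside the globin genes (open points, dotted lines), on an axis that is logarithmic above 1, with 1 line per library. Bcl2l1 climbed in every library, from 2.54 to 5.31 CPM in early to 330.5 to 549.6 CPM in late cells, and Bak1 dropped from 82.3 to 113 CPM to 1.17 to 5.83 CPM. The late Bak1 values rest on 1 to 3 UMIs per library.

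The size of the change between the late and early stages depended on the scaling. The median log2 change of all 7949 genes tested was −0.85 with TMM factors and −3.27 with the UMI total alone, and 25.2% of them rose and 40.1% fell. Values are therefore also given relative to the median gene, where no member changed sign under another scaling except Bax, which lay near 0. Bcl2l1 stood 10.18 above the median on the log2 scale (log2 change 9.33, SE 0.32, adjusted p = 5.8e-178) and Mcl1 2.35 above it (1.49, SE 0.24, adjusted p = 3.9e-09). Bbc3 stood 4.95 above it (4.10, SE 0.44, adjusted p = 2.6e-19). Bax, with a log2 change of −0.78 (SE 0.28, adjusted p = 0.0091), was 0.07 from the median, and Bcl2l11 (−1.12, SE 0.49, adjusted p = 0.037) was −0.27 from it. Bak1 (−2.72, SE 0.47, adjusted p = 4.1e-08) was −1.87 from it and Bid (−1.80, SE 0.60, adjusted p = 0.0053) −0.94. All 7 members tested passed, 3 higher and 4 lower, Mcl1 being lower in place of higher with the UMI total alone (−0.94) and not past the threshold with the stricter cell filter (0.86, adjusted p = 0.057). Bcl2l1 and Bbc3 passed the filter on low counts only through the late cells, and Bak1, Bid and Bcl2l11 only through the early cells. The directions of these members are thus not independent of the filter, and only Bax and Mcl1 passed it in both stages. The Bax call was lost with DESeq2's size factors (−0.58, adjusted p = 0.064), and with stages by tertiles of the globin share Bak1 stood at −1.59 and Bcl2l11 at 0.16 (adjusted p = 0.42), the opposite sign.

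Beside the rise of Bcl2l1, Mcl1 took its own course. In CPM it was at 109, 93.5, 107 and 115 CPM in early, 176, 141, 251 and 163 CPM in intermediate and 79.6, 36.2, 57.5 and 56.4 CPM in late cells, higher at the intermediate stage and lower at the late stage than at the early one in every library. Outside the globin genes it was at 182, 82.7, 166 and 128 CPM in late cells against 109, 93.6, 108 and 116 CPM in early cells, a mixed order. Per cell it fell in number from 4.16, 5.30, 6.56 and 2.92 UMIs to 0.339, 0.186, 0.431 and 0.189 UMIs. The direction for Mcl1 is thus set by the scale chosen.

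Both pore formers were higher at the early stage than at the late one. Bax was at 176, 165, 201 and 236 CPM in early, 55.4 ± 11.8 CPM in intermediate and 22.0 ± 10.2 CPM (SD, n = 4) in late cells, and Bak1 at 113, 82.3, 97.6 and 104 CPM in early and 5.83, 1.17, 1.31 and 4.03 CPM in late cells. Bid went from 36.2, 31.4, 46.5 and 42.3 CPM to 1.94, 1.17, 2.62 and 2.69 CPM. Bcl2l11 went from 45.1 ± 5.80 CPM to 3.91 ± 2.28 CPM (SD, n = 4); its call was lost without the library labelled cre 1, flox 1 or flox 2 (adjusted p = 0.053, 0.092 and 0.083). Bbc3 was at 5.86, 2.78, 7.98 and 4.56 CPM in early and 11.7, 10.5, 17.0 and 25.5 CPM in late cells, a gain in share that stood beside fewer UMIs per cell, 0.225, 0.157, 0.489 and 0.115 in early and 0.0496, 0.0539, 0.127 and 0.0856 in late cells. Its late values rest on 6 to 19 UMIs per library, and those of Bak1, Bid and Bcl2l11 on fewer. Late UMIs were 3, 1, 1 and 3 for Bak1, 1, 1, 2 and 2 for Bid and 3, 5, 1 and 2 for Bcl2l11.

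Of 5 other family genes tested 3 rose and 2 fell. Bnip3l, the receptor by which maturing red cells clear mitochondria, was at 103, 111, 123 and 122 CPM in early and 1433, 1605, 1166 and 1295 CPM in late cells (log2 change 6.0, SE 0.29, adjusted p = 9.4e-95), and Becn1, which encodes the autophagy protein Beclin 1, rose by 3.53 (SE 0.24, adjusted p = 8.3e-47). Bcl2l12 was at 32.9 ± 4.38 CPM (SD, n = 4) in early cells and at 0 in 3 of the 4 late sums (adjusted p = 7.5e-05), and Bad fell by 2.14 (SE 0.62, adjusted p = 0.0013). Of 18 death genes 3 rose and 9 fell, with a median of −0.96 beside the −0.85 of all genes. Fadd, the adaptor of the death receptor route, and Casp9, the initiator caspase of the mitochondrial route, had 0 UMIs in every late sum. In early cells they were at 12.1 to 16.7 CPM and 6.17 to 9.98 CPM. Both passed the filter through the early cells alone, so lower was the only call possible (adjusted p = 0.0029 and 0.026). Bcl2l12 too passed the filter only through the early cells. The late sums held 514956 to 857101 UMIs, 56 to 65% of them globin, so a low level in late cells could be missed. Aifm1 went from 97.4 ± 10.9 CPM to 1.55 ± 1.82 CPM (SD, n = 4, adjusted p = 8.0e-10).

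Set against CD8+ Tc, erythroid cells had little RNA of 3 of the 5 prosurvival genes. Bcl2 was at 7.93, 9.62, 9.27 and 2.20 CPM in all erythroid cells and at 0.892 to 3.06 CPM in the early cells, and Bcl2a1b at 4.79, 2.52, 6.43 and 0.931 CPM. A cluster of 104 erythroid cells (cluster 5) that carried T cell and immunoglobulin RNA, with Cd3e at 77.4 to 232 CPM, had Bcl2 at 57.2 to 151 CPM and the Bcl2a1 sum at 47.1 to 105 CPM. Over all erythroid cells the log2 change of Bcl2 against CD8+ Tc was −5.66 (SE 0.44, adjusted p = 5.7e-05), and −7.36 without that cluster. For Bcl2a1b and Bcl2a1d it was −5.95 and −5.88, and −8.36 and −8.21 without it. Mcl1 fell by 1.15 (SE 0.09, adjusted p = 6.2e-05), from 285 ± 17.3 CPM to 109.5 ± 8.64 CPM (SD, n = 4). That fall is in share: per cell Mcl1 was at 2.54, 2.16, 2.62 and 2.03 UMIs in erythroid cells and 1.54, 2.08, 2.33 and 1.15 in CD8+ Tc, higher in erythroid cells in each library.

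Bcl2l1 rose by 2.08 (SE 0.50, adjusted p = 0.0082), with 29.5, 45.6, 77.2 and 12 CPM against 6.90, 9.02, 10.3 and 12.5 CPM in CD8+ Tc. It did not rise in the library labelled flox 2. Early erythroid cells alone, at 5.31, 3.33, 2.54 and 2.87 CPM, were below CD8+ Tc in every library. Late cells held 283 of 462, 388 of 488, 345 of 408 and 246 of 424 of the Bcl2l1 UMIs. The globin share of the UMIs of the sums over all erythroid cells had the same order as their Bcl2l1 level, at 3.53, 7.72, 14.5 and 2.60%, and its part in the value was not tested. With the stricter cell filter the value was 0.62 (adjusted p = 0.19). Bak1 rose by 0.77 (SE 0.06, adjusted p = 6.8e-05) and Bid by 1.00 (SE 0.10, adjusted p = 1.6e-04), and Bcl2l11 and Bbc3 fell by 1.43 (SE 0.16, adjusted p = 2.3e-04) and 0.97 (SE 0.19, adjusted p = 0.0034). Per cell these 2 had no common direction: Bcl2l11 was at 1.02, 0.823, 0.891 and 0.822 UMIs in erythroid cells and 1.04, 0.927, 0.961 and 0.421 in CD8+ Tc, and Bbc3 at 0.171, 0.125, 0.231 and 0.0905 and 0.0725, 0.154, 0.181 and 0.0397. Bax, at 164 ± 33.4 CPM (SD, n = 4), did not pass (−0.23, SE 0.11, adjusted p = 0.094). In sum 3 members rose and 6 fell, where 40.8% of all 11257 genes rose and 39.5% fell, so the number of rises is near the background. Of 11 other family genes 5 rose and 3 fell; Pmaip1, the gene of the BH3-only protein NOXA, fell by 5.04, and the BH3-only genes Bmf and Bik by 3.66 and 2.37, while Bcl2l13 rose by 1.90 (adjusted p = 9.0e-05, 6.4e-04, 0.0016 and 1.2e-05). Of 20 death genes 9 rose and 9 fell: the death receptor gene Fas fell by 4.22, Birc3 by 3.19 and Cflar by 2.27, and Htra2 rose by 3.33 (adjusted p = 1.2e-05, 1.5e-05, 9.0e-06 and 9.0e-06).

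Between the genotypes no member passed in CD8+ Tc, CD4+ Tc, TPEX-like cells, CD8 cluster 1, all, early or late erythroid cells, and 0 did in any of these without the library labelled cre 1. In CD8+ Tc, where Cre is meant to act, the 10 values lay between −0.56 (Bcl2l1, −0.33 without the library labelled cre 1) and 0.37 (Bcl2l11) on the log2 scale, for Havcr2fl/fl;E8icre/+ against Havcr2fl/fl, and each adjusted p was 1.00; of all 10882 genes edgeR called 3 (0.0276%) and 290 (2.66%) had an unadjusted p under 0.05, with 0 members in either, and DESeq2 called 4 genes and 0 members. Bcl2 was at 337, 451, 344 and 367 CPM (0.12, SE 0.23, adjusted p = 1.00), Mcl1 at 266, 281, 284 and 308 CPM (−0.15, SE 0.19, adjusted p = 1.00) and Bax at 201, 201, 184 and 329 CPM (−0.38, SE 0.26, adjusted p = 1.00). Without the library labelled cre 1 these values were 0.35, −0.07 and −0.34 in the same order. The groups overlapped for Bcl2, and a single library stood apart for Bax, flox 2. Bcl2l11, at 181, 125, 117 and 113 CPM, was highest in the library labelled cre 1, whose Havcr2 level goes against its label; its log2 change was 0.37 (SE 0.20, adjusted p = 1.00), and 0.13 without that library. With 2 libraries a group, SEs of 0.18 to 0.37 limit what could be seen, and a p that misses the threshold does not show that the genotypes are alike.

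**Figure D5:**
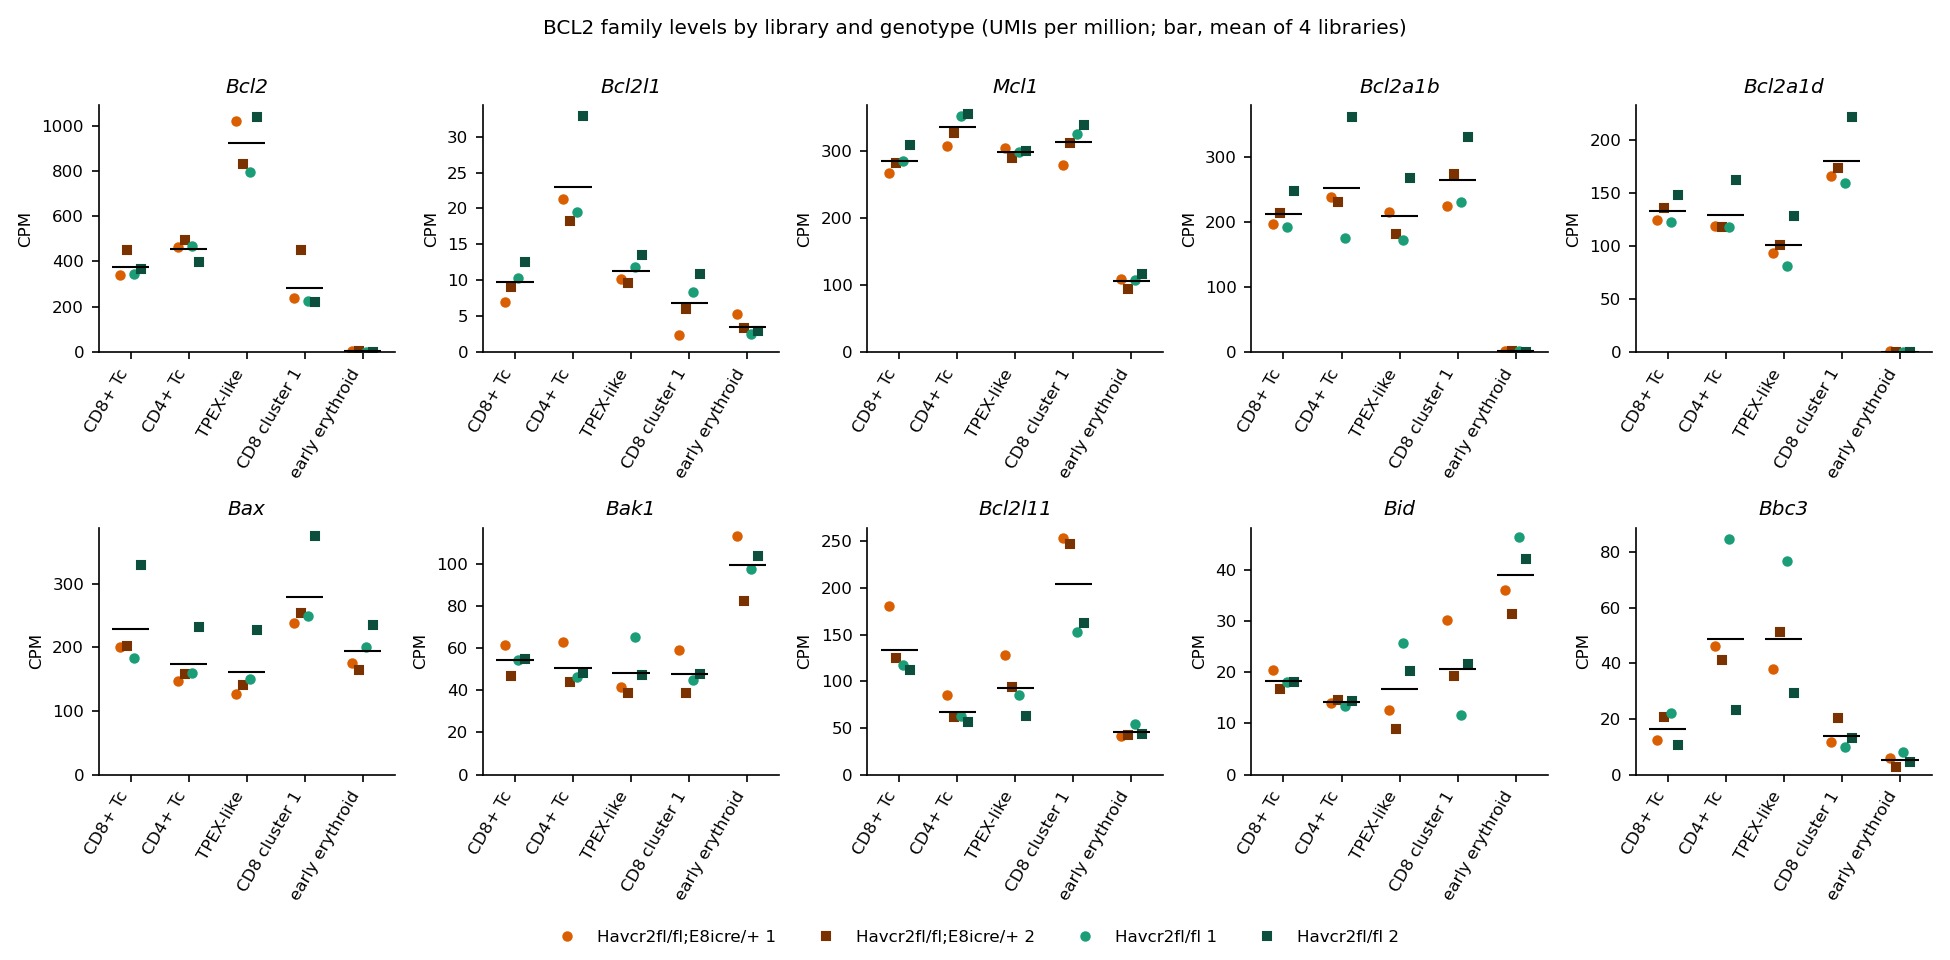
Levels of the 10 members in each library in 5 cell groups, in CPM (vertical axes, linear from 0, scaled per gene), with orange and brown points for the libraries labelled Havcr2fl/fl;E8icre/+ and green points for those labelled Havcr2fl/fl. Bars are means of 4. In CD8 cluster 1 the Bcl2l11 points of the labelled genotypes were at 254 and 247 against 153 and 162 CPM, without overlap. There the points of Bcl2, Mcl1 and Bcl2l1 did not overlap either. No member passed adjustment. The share of all genes without overlap was not counted, so no difference between the genotypes is read from these points.

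Within states, 4 values had an unadjusted p under 0.05 and none passed adjustment. Bcl2l11 in CD8 cluster 1 was at 254 and 247 CPM in the libraries labelled cre and 153 and 162 CPM in those labelled flox, higher in both of the former, with a log2 change of 0.65 (SE 0.20, unadjusted p = 0.0073, adjusted p = 0.98), and 0.65 without the library labelled cre 1. In that cluster edgeR called 0 of 7470 genes (0%), with 291 (3.9%) at an unadjusted p under 0.05, and DESeq2 called 3. Bid in TPEX-like cells was at 12.6, 8.90, 25.7 and 20.2 CPM, a log2 change of −1.16 (SE 0.46, unadjusted p = 0.025, adjusted p = 0.75), and −1.33 without the library labelled cre 1. In these cells 2 of 6907 genes (0.029%) were called and 411 (5.95%) had an unadjusted p under 0.05. In early erythroid cells, where Cre is not meant to act, Bax was at 176, 165, 201 and 236 CPM (−0.44, SE 0.15, unadjusted p = 0.016, adjusted p = 0.57) and Bid at 36.2, 31.4, 46.5 and 42.3 CPM (−0.45, SE 0.14, unadjusted p = 0.009, adjusted p = 0.55), with values of −0.40 and −0.47 without the library labelled cre 1. Here 7 of 10197 genes (0.0686%) were called, with 813 (7.97%) at an unadjusted p under 0.05. Late erythroid cells had 0 of 2669 genes called by edgeR (0%) and 0 by DESeq2, with 121 (4.53%) at an unadjusted p under 0.05.

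Bcl2 in cluster 1 had a value of 0.61 (adjusted p = 0.98) that rested on 1 library: it was 1.02 without the library labelled cre 1 and 0.06 without that labelled cre 2. In CD4+ Tc 1 of 9648 genes (0.0104%) passed and 305 (3.16%) had an unadjusted p under 0.05, and in all erythroid cells 3 of 10946 (0.0274%) and 453 (4.14%), no member in any of these. The difference of the genotype effect between CD8+ and CD4+ Tc was tested as an interaction: 2 of 10880 genes (0.0184%) passed and 473 (4.35%) had an unadjusted p under 0.05, with 0 members in either. Of the other family genes and the death machinery 0 passed in any of these comparisons between genotypes.

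Libraries differed among themselves in ways that crossed the states. Bax was highest in the library labelled flox 2 in 15 of the 17 clusters of CD8+ and CD4+ Tc examined, and Bcl2a1b in 14 of 17. Bcl2l11 was highest in that labelled cre 1 in 13 of 17, and Bbc3 in that labelled flox 1 in 11 of 17. The library labelled flox 2 was also the shallowest in CD8+ Tc, with a median of 3025 UMIs per CD8+ Tc against 4749, 6164 and 6975 in the libraries labelled cre 1, cre 2 and flox 1; the part of depth in these orders was not tested. Comparisons of states carry the library as a block.

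Genes whose pattern over the states was most like that of a member were found by Pearson's correlation, a description across sums with no test, of log2(CPM + 1) over 88 sums of 22 states in 4 libraries, which share libraries and depth. For Bcl2 they were Dgka (r = 0.95), a diacylglycerol kinase gene of Tc, Gm26740 (r = 0.93) and Arid5a (r = 0.92). For Bcl2l1 they were Hbb-bt, Fech, the last enzyme of heme synthesis, and Slc25a39, a mitochondrial carrier (r = 0.72 for each). For Mcl1 they were Krit1 (r = 0.93), Abi1 (r = 0.89) and 4930523C07Rik (r = 0.88), and for Bcl2a1b Pglyrp1, Gng2 and Cst7 (r = 0.96, 0.96 and 0.95). The 22 states held Tc and erythroid states together, and likeness among Tc states alone was not taken.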

How the data were processed

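The deposited files hold raw counts of UMIs for every gene, and for 1 antibody tag to donor H-2Kb, in single cells; the authors made them with Cell Ranger 6.1.2 on mm10, per the submitters' processing notes. The members and gene lists were chosen with earlier results of these data known. A barcode was kept with 500 genes and 1000 UMIs or more and a mitochondrial share of 10% or less (11632 of 15784), and Scrublet in scanpy 1.11.5 removed 125 doublets. CD8+ and CD4+ Tc were gated by UMIs of Cd8a or Cd8b1, or of Cd4, but not both, in T cell clusters. Each set was integrated over libraries and clustered with Seurat 5.3.0 (R 4.3.3; 2000 variable genes without the BCL2 family, 30 dimensions, 20 neighbors). Clusters were named by marker lists of which at least 3 genes were raised, and no fewer than were not raised. Where several lists met this, cycling came first, then the list with the largest share raised. A cluster stayed unnamed where its leading genes spoke for another name. No cluster met the rule for terminally exhausted cells, so the comparisons planned for it used CD8 cluster 1, a choice made after seeing the data, as were the early and late stages for genotype. UMIs were summed for each library and state. After filterByExpr, edgeR 4.0.16 with TMM factors gave a two-sided quasi-likelihood test, adjusted after Benjamini and Hochberg over all genes at a threshold of 0.05, with the library as a block between states; the test was tried on simulated data. All 10 members are named throughout; of each other list at most 4 genes past the threshold with the largest log2 change, and 3 genes of like pattern for 4 members among genes with a mean of at least 20 CPM. A few genes of these lists are counted but their values are not reported here. Gene IDs were matched to GENCODE M21 (32235 of 32285, 99.8%).

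Alternatives were DESeq2 1.42.0, other scalings, no filter, each library left out, stricter cells (1000 genes, 5%), 313 expected doublets, donor-tag-positive cells, gates by cluster, other resolutions, variable genes with the family kept, globin genes left out, erythroid stages by tertiles of the globin share, and blocks. The erythroid comparison without cluster 5 and the crossed block were added after seeing the data.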

Additional observations from a re-analysis of the deposited data

How the results depend on the processing

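The 44 calls of members between states were repeated under the alternatives named, 661 values in all, of which 605 kept direction and threshold, 54 lost the threshold and 2 changed sign, and 30 of the calls held in every alternative run. The sign changes were Mcl1 in late against early erythroid cells with the UMI total alone (−0.94) and Bcl2l11 there with stages by tertiles of the globin share (0.16, adjusted p = 0.42). The number of members called moved by over 1.5 times in these cases: CD4+ against CD8+ Tc without the library block, 3 in place of 6; short-term effector-like cells against CD8 cluster 1 at lower and higher resolution, 6 and 5, and with the family kept among the variable genes, 6, in place of 3; cytotoxic-like against precursor-like CD4+ Tc under DESeq2, the stricter cell filter, no library block and lower resolution, 2 each in place of 4; and late against early erythroid cells under the stricter cell filter, 4 in place of 7. The causes were not tested. Between genotypes 988 alternative values of members were computed and 0 passed. With a library left out, values in CD8+ Tc ranged over −0.16 to 0.35 for Bcl2, −0.30 to 0.051 for Bcl2a1b, −0.22 to 0.044 for Bcl2a1d, −0.74 to 0.091 for Bax, −0.21 to 0.080 for Bak1, −0.097 to 0.094 for Bid and −0.45 to 0.62 for Bbc3. There Bid was −0.048 with the stricter cell filter and −0.046 with expected doublets, Bbc3 was −0.054, −0.012 and −0.055 with the stricter cell filter, expected doublets and gates by cluster, and Bak1 was 0.021 with gates by cluster. Counts over all genes moved more. Between genotypes, genes called without a filter numbered 89 in CD8+ Tc, 45 in CD4+ Tc, 44 in TPEX-like cells, 31 in CD8 cluster 1, 109 in all, 139 in early and 1 in late erythroid cells and 56 for the interaction, in place of 3, 1, 2, 0, 3, 7, 0 and 2. DESeq2 called 5 in CD4+ Tc, 3 in cluster 1, 15 in all and 21 in early erythroid cells. With a library left out the count ranged over 1 to 10 in CD8+ Tc, 6 to 27 in CD4+ Tc, 0 to 16 in TPEX-like cells, 1 to 72 in cluster 1, 5 to 267 in early and 0 to 48 in late erythroid cells and 2 to 23 for the interaction, and was 0 each time in all erythroid cells. With the UMI total alone it was 13 in all and 24 in early erythroid cells. Between states DESeq2 called 1497 genes in place of 2518 in CD4+ against CD8+ Tc, 877 in place of 1772 in cluster 1 against TPEX-like cells, 564 in place of 899 in short-term effector-like cells, 569 in place of 976 in Treg-like cells and 411 in place of 805 in cytotoxic-like cells, and without the library block 1019, 1165 and 513 genes were called in the first, second and last of these. The replicate numbers are not said to pair the mice. Deviations of same-numbered libraries had correlations of −0.13 in CD8+ Tc, −0.05 in CD4+ Tc and −0.31 in erythroid cells. With 4 libraries these values cannot show whether mice were processed in pairs. With the replicate block 0 members passed in any comparison between genotypes, and 0 genes passed in CD8+ Tc, 0 in CD4+ Tc, 0 in all erythroid cells and 29 in TPEX-like cells. Crossed numbers, a block chosen after seeing the data, were run only in CD8+ Tc and all erythroid cells. There 61 and 17 genes passed, again with 0 members. Depth limits the rare states and low genes most: Bcl2l1 could not be tested in several Tc states.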
